A study of Caenorhabditis elegans with 8 samples.

Results

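The zinc-dependent histone deacetylases of Caenorhabditis elegans were followed in mRNA of embryos and larvae. The members were the 5 genes hda-1, hda-2, hda-3, hda-4 and hda-6, chosen by sequence name, out of 20389 genes in the count table. All 5 had a row in the counts and in the table of TPM (transcript abundance scaled for gene length and library size), and all 5 passed the filter on low counts. Libraries came from L3 larvae (n = 4) and mixed-stage embryos (n = 4). Every animal was of strain VC199, which carries the sir-2.1(ok434) deletion, so both stages lack the sirtuin deacetylase SIR-2.1 by their labels. Larvae had hatched overnight and then fed on plates for a day, whereas embryos were released with bleach from parents of mixed age. The study's methods give the larvae a wider window (L2/L3). The labels include no wild-type animals. Stages were therefore compared, and an effect of the strain on these genes was not analysed here.

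Histone deacetylases remove acetyl groups from lysines, mostly on histone tails, and are usually linked to closed chromatin and low transcription. One family needs a zinc ion in its catalytic pocket. The other family, the sirtuins, uses NAD+ and includes SIR-2.1. Zinc-dependent enzymes are grouped by sequence. Class I enzymes (HDA-1, HDA-2 and HDA-3) are the catalytic subunits of nuclear corepressor complexes such as NuRD, SIN3 and CoREST. HDA-1, the worm counterpart of mammalian HDAC1, is needed for embryonic development and for cell fates in the gonad and vulva. HDA-4 is the class IIa enzyme, which acts with the transcription factor MEF-2 and is held in check by the kinase KIN-29 in sensory neurons. HDA-6 resembles mammalian HDAC6, a class IIb enzyme that works mainly on tubulin in the cytoplasm.

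The genes lie on different chromosomes. In WS220 coordinates hda-1 (C53A5.3) lies on chromosome V, 14525372 to 14527398, plus strand. hda-2 (C08B11.2) lies on chromosome II, 8020728 to 8022510, minus strand. hda-3 (R06C1.1) lies on chromosome I, 11912782 to 11917710, minus strand. hda-4 (C10E2.3) is the member on the X chromosome, at 16729486 to 16744625 on the plus strand, and hda-6 (F41H10.6) lies on chromosome IV, 5356530 to 5364260, minus strand. All are protein coding. In the later WBcel235 annotation the longest transcript has 4 exons for hda-1, 3 for hda-2, 5 for hda-3, 11 for hda-4 and 10 for hda-6. There, hda-4 has 2 annotated transcripts and hda-6 has 4, and counts per gene do not tell these apart. In the same annotation hda-2 overlaps zyg-11 and hda-6 overlaps F41H10.5, both on the opposite strand. hda-4 holds the non-coding RNA gene T21F2.2 on its own strand, so reads from there cannot be told apart from hda-4 by strand. Libraries were stranded, but whether the counting used strand is not given in the sources used here. Reads of hda-2 and hda-6 may therefore have been left out as ambiguous, or some may come from zyg-11 and F41H10.5. Neither was tested. hda-1, hda-2 and hda-3 are paralogs, and reads that fitted more than 1 place were not counted.

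The larvae libraries held 13687095 to 22419153 gene counts and the embryo libraries 16300947 to 31292935. The titles of larvae replicate 2 and embryo replicate 1 each carry 2 library codes, and each was counted as 1 library. Stage labels were checked with markers. Early embryo regulators (end-1, end-3, med-1, tbx-37, pes-1 and hlh-27) summed to 0.068 to 0.714 TPM in larvae and 52.9 to 75.4 TPM in embryos, and 5 of the 5 tested were lower in larvae. Body-wall muscle genes (unc-54, myo-3 and unc-15) summed to 2332 to 3246 TPM in larvae and 525 to 749 TPM in embryos, and 3 of 3 were higher in larvae. Cuticle collagens split, with rol-6 and sqt-1 higher and sqt-3 lower in larvae, and bli-1 near 0 in both. The moulting gene mlt-10 was not called, with a change of 0.20 on the log2 scale. These cuticle and moulting genes together summed to 1118 to 3328 TPM in larvae and 3947 to 4481 TPM in embryos. In embryos sqt-3 had a mean of 4117 TPM. This list therefore does not separate the stages in the way its larval label would. Adult markers, mostly vitellogenins, summed to 0.727 to 13.8 TPM in larvae and 0.374 to 51.5 TPM in embryos, with embryo replicate 2 the highest library. Transcript from the sir-2.1 locus was present in every library, at 13.7 to 17.4 TPM in larvae and 35.8 to 38.6 TPM in embryos. The change, on the log2 scale, was -0.44 (standard error, SE, 0.133, adjusted p-value by edgeR 0.00970), and with a filter of 10 CPM in 4 libraries it was -0.25 and no longer passed. Counts per gene do not show which part of that transcript was made, so they cannot check the deletion, and ugt-59 overlaps the locus on the opposite strand.

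Larvae were compared with embryos to ask how the mRNA of each deacetylase follows development. The class I genes fell most: hda-1 was 3.52-fold, hda-2 3.19-fold and hda-3 2.60-fold lower in larvae. hda-6 was 1.58-fold lower. hda-4 was the member that did not pass the test, with a level in larvae 0.940 times that in embryos. Thus 4 of 5 members were called lower and 0 of 5 higher by edgeR's quasi-likelihood test with Benjamini-Hochberg adjustment over all genes. Most of the transcriptome differed by stage, with 74.1% of the 13571 genes tested called, 37.2% lower and 36.9% higher in larvae. In TMM-scaled counts the larvae libraries were all below the embryo libraries for 4 of 5 members, against 35.6% of all genes tested. A further 33.3% of all genes had all larvae libraries above, so that 69.0% did not overlap in either direction. Whole animals were sequenced, so fewer cells that express a gene and less of its mRNA per cell cannot be told apart here.

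**Figure D1:**
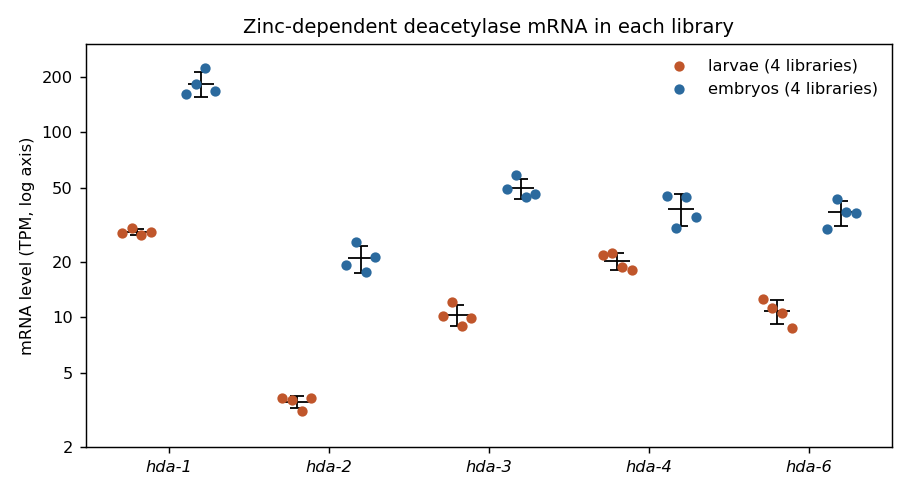
mRNA level (TPM, log axis) of each member in the 4 larvae libraries (orange) and the 4 embryo libraries (blue), with mean and SD as black marks. In TPM each member was lower in every larvae library than in every embryo library, by 6.34-fold in the means of hda-1 and by 1.92-fold in those of hda-4. Most genes were lower in larvae on this scale. The median change was -0.82 in log2(TPM + 1), and of 13144 genes tested 7613 were called lower and 2817 higher. The share of all genes without overlap in TPM was not computed. Lack of overlap in TPM, here and below, is therefore not read as particular to the members.

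Among the class I genes, hda-1 was the most abundant. Its level was 28.6, 30.3, 27.9 and 28.98 TPM in larvae replicates 1 to 4, against 161, 183, 222 and 167 TPM in embryo replicates 1 to 4. The lowest embryo library therefore stood far above the highest larvae library. The means were 28.9 ± 1.03 TPM in larvae and 183 ± 27.3 TPM in embryos (SD, n = 4 each). From raw counts (973, 1626, 1273 and 1429 in larvae, against 9825, 7441, 6771 and 6248 in embryos) the log2 fold change was -1.82 with an SE of 0.166 (adjusted p-value by edgeR 1.44e-06). Of all genes tested, 13.9% had a lower log2 fold change than hda-1. In rank of mean TPM, hda-1 stood above 83.7% of the genes detected in larvae and above 95.6% of those detected in embryos.

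hda-2, the least abundant member, also fell. It had 3.69, 3.58, 3.11 and 3.68 TPM in larvae and 19.3, 25.5, 17.5 and 21.1 TPM in embryos, in the order of the replicates. Stages did not overlap, and counts were modest in larvae (108 to 163, against 458 to 990 in embryos). The log2 fold change was -1.67 with an SE of 0.181 (adjusted p-value by edgeR 5.54e-06). Its ratio to hda-1 is given with the other pairs of members.

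hda-3 was the second class I gene in abundance. Its level was 10.2, 12.1, 9.02 and 9.96 TPM in larvae and 49.2, 58.6, 44.9 and 46.3 TPM in embryos, again without overlap. The log2 fold change was -1.38 with an SE of 0.147 (adjusted p-value by edgeR 4.94e-06). Of these class I genes, hda-1 and hda-2 fell by more than the median gene called lower in larvae (-1.45), and hda-3 fell by less.

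hda-6, the member resembling the tubulin deacetylase of mammals, fell by less than the class I genes. It had 12.6, 11.3, 10.56 and 8.74 TPM in larvae and 30.1, 43.7, 36.9 and 36.9 TPM in embryos, without overlap. Its log2 fold change was -0.66 with an SE of 0.172 (adjusted p-value by edgeR 0.00427), and the 95% confidence interval ran from -1.03 to -0.28. When tested against a change of at least 1.5-fold, hda-6 no longer passed (adjusted p-value by edgeR 0.212), whereas hda-1, hda-2 and hda-3 did.

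hda-4 depended on how libraries were scaled. Its counts were 1526, 2428, 1759 and 1818 in larvae and 5632, 2526, 2810 and 2669 in embryos. The main fit used TMM factors, which assume that most genes do not change, and gave a log2 fold change of -0.09 with an SE of 0.158 (adjusted p-value by edgeR 0.627). The 95% confidence interval ran from -0.43 to 0.26, so changes larger than these bounds are outside the interval while smaller ones are not. TMM-scaled CPM (counts scaled for library size) were 131, 121, 119.4 and 114 in larvae and 137, 102, 157 and 120 in embryos, and these overlap. In the authors' TPM the stages did not overlap, with 21.8, 22.2, 18.8 and 18.0 in larvae against 45.1, 30.4, 44.9 and 34.7 in embryos.

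The whole transcriptome moved with the scaling too. Over all genes the median change was -0.03 on the log2 scale with TMM, -0.53 when libraries were scaled by their totals, and -0.82 in log2(TPM + 1). hda-4 had -0.58 (SE 0.159) with library totals and -0.89 (SE 0.162) in log2(TPM + 1), and passed the test in both (adjusted p-values by edgeR 0.00614 and by limma 0.000543). Set against the median gene, hda-4 was at -0.06 with TMM, -0.05 with totals and -0.07 in log2(TPM + 1). The class I genes stayed well below the median gene on each scale, at -1.78, -1.77 and -1.79 for hda-1 and at -1.35, -1.34 and -1.34 for hda-3. hda-2 was at -1.64, -1.64 and -1.45, and hda-6 was at -0.63, -0.62 and -0.87. With TMM, 5004 genes were called higher and 5054 lower in larvae. With totals the split was 3683 and 6607, and in log2(TPM + 1) it was 2817 and 7613.

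**Figure D2:**
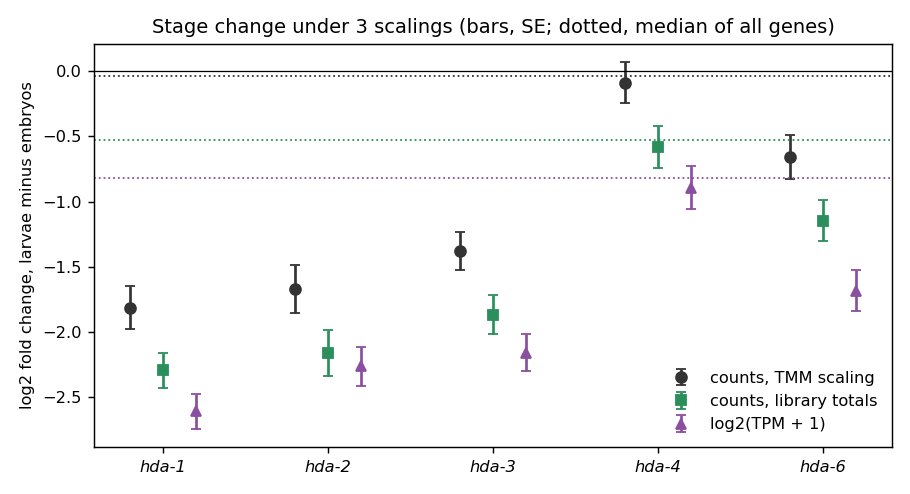
Log2 fold change, larvae minus embryos, of each member under 3 scalings (points, with SE as bars), and the median of all genes under the same scaling (dotted lines). hda-4 sits on the dotted line of each scaling, and the other members lie below theirs, hda-1 at -1.78 from it with TMM scaling.

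In a ratio of 2 members within a library the factor for library size cancels, so the ratio shows whether they changed by different amounts. It still depends on whether TPM or counts are used, and TPM were used here. All 10 pairs were tested, each by an exact permutation of the libraries over the stages (70 regroupings, two-sided). For 9 of 10 pairs the stages did not overlap (exact permutation p = 0.0286, the smallest this design allows, 0.0317 after Benjamini-Hochberg adjustment over the 10 pairs). Over all pairs of the 12730 genes tested with TPM above 0 in every library, 66.4% did not overlap, and the 10 pairs share 5 genes and the same 8 libraries, so they are not independent. The exception was hda-1 to hda-2, with a mean log2 ratio of 3.04 ± 0.0960 in larvae and 3.14 ± 0.360 in embryos (SD, n = 4 each, exact permutation p = 0.8286). A difference between these paralogs smaller than the spread of the embryo libraries could not be detected.

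The ratio of hda-4 to hda-1 changed most. It was 0.761, 0.732, 0.677 and 0.622 in larvae and 0.280, 0.166, 0.202 and 0.208 in embryos. In every larvae library the class IIa gene thus stood nearer to the main class I gene, per length, than in any embryo library. On the log2 scale hda-1 to hda-4 differed by -1.73 between stages, hda-2 to hda-4 by -1.63 and hda-3 to hda-4 by -1.34. hda-6 also gained on the class I genes. The differences were -0.88 for hda-1 to hda-6, -0.78 for hda-2 to hda-6 and -0.49 for hda-3 to hda-6. Within class I, hda-3 gained on its paralogs by less, with differences of -0.39 for hda-1 to hda-3 and -0.29 for hda-2 to hda-3. Without embryo replicate 3 that for hda-1 to hda-3 was -0.24. The stages nearly touched in both ratios. For hda-1 to hda-3 the highest larvae library was at 1.63 and the lowest embryo library at 1.65. For hda-2 to hda-3 these were at -1.44 and -1.36. hda-4 also rose relative to hda-6 by 0.85 in TPM. With raw counts this last difference was 0.57, and it no longer passed (exact permutation, adjusted p = 0.0952).

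**Figure D3:**
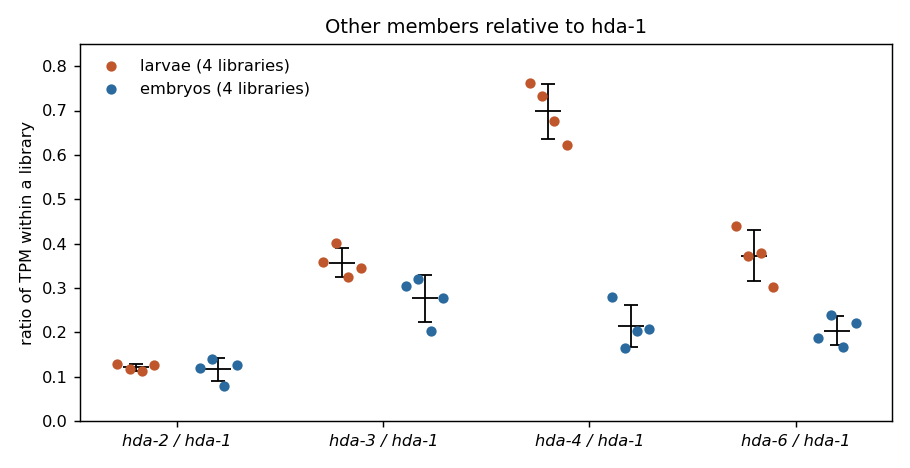
Ratio of the TPM of hda-2, hda-3, hda-4 and hda-6 to that of hda-1 within each library, for larvae (orange) and embryos (blue), with mean and SD as black marks. The ratio of hda-4 was 0.698 ± 0.0617 in larvae and 0.214 ± 0.0476 in embryos, while that of hda-2 overlapped between stages.

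The makeup of the deacetylase mRNA was then described, with no test. Summed over the 5 members, the level was 69.4 to 79.5 TPM in larvae and 305 to 366 TPM in embryos. hda-1 took 39.3% ± 2.05 of this sum in larvae and 55.4% ± 3.50 in embryos (SD, n = 4 each). hda-4 took 27.3% ± 1.03 in larvae and 11.8% ± 2.43 in embryos. hda-6 took 14.6% ± 1.60 in larvae and 11.203% ± 1.45 in embryos. The shares of hda-3 (13.99% ± 1.04 and 15.2% ± 2.097) and hda-2 (4.77% ± 0.380 and 6.37% ± 1.15) differed by -1.18 and -1.60 percentage points between larvae and embryos. Without embryo replicate 3 these differences were -2.15 and -2.13, and without embryo replicate 2 that of hda-3 was -0.52. Among class I genes alone, hda-1 made up 67.7% ± 1.59 in larvae and 72.0% ± 4.16 in embryos, hda-3 made up 24.1% ± 1.64 and 19.7% ± 2.76, and hda-2 made up 8.22% ± 0.504 and 8.28% ± 1.48.

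**Figure D4:**
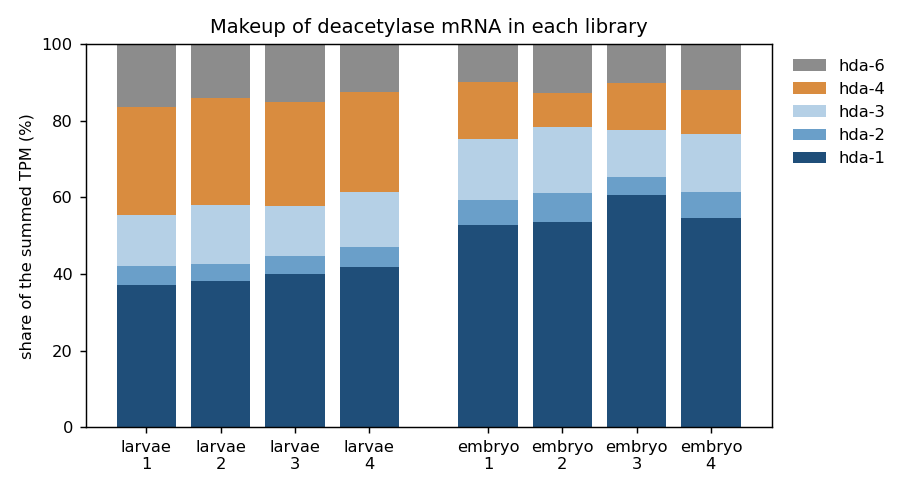
Share (%) of each member in the summed TPM of the 5 members, one bar per library, larvae on the left and embryos on the right. hda-4 took 26.0% to 28.3% in larvae and 8.89% to 14.8% in embryos.

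The order of the levels in larvae, per length, was hda-1, hda-4, hda-6, hda-3 and hda-2. hda-1 was above hda-4 and hda-4 above hda-6 in 4 of 4 libraries. hda-6 was above hda-3 in 2 of 4, and these neighbours did not differ beyond their spread. In embryos the order was hda-1, hda-3, hda-4, hda-6 and hda-2. hda-3 was above hda-4 in 4 of 4 libraries, although by only 44.9447 against 44.8942 TPM in replicate 3. hda-4 was above hda-6 in 2 of 4, again within the spread. With 4 libraries a paired exact test cannot go below p = 0.125, so these orders are given as counts.

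The spread between libraries was larger in embryos than in larvae for all 5 members in TMM-scaled CPM, but not for all in TPM. The coefficient of variation of TMM-scaled CPM was 4.22% for hda-1, 7.83% for hda-2, 6.03% for hda-3, 5.78% for hda-4 and 11.7% for hda-6 in larvae. In embryos it was 19.3%, 17.1%, 12.5%, 18.0% and 19.2% in the same order. In TPM it was 12.7% in larvae and 12.4% in embryos for hda-3, and 14.8% in larvae and 15.03% in embryos for hda-6. For TMM-scaled CPM the median over all genes tested was 21.9% in larvae and 19.7% in embryos. Embryo libraries also ranked the members differently. hda-1 was highest in embryo replicate 3, whereas hda-2, hda-3 and hda-6 were highest in replicate 2, where hda-4 was lowest. These markers were set beside them after the values had been seen. Over embryo replicates 1 to 4, pan-neuronal genes (unc-119, rab-3, snb-1 and rgef-1) summed to 536, 396, 546 and 420 TPM, and hda-4 had 45.1, 30.4, 44.9 and 34.7 TPM. Both were high in replicates 1 and 3 and low in replicates 2 and 4. Over the same replicates the body-wall muscle genes summed to 749, 525, 556 and 536 TPM. Intestine genes (elt-2, ges-1 and ifb-2) summed to 208, 135, 142 and 147 TPM. Both lists were highest in replicate 1 and lowest in replicate 2, as was hda-4. The muscle list ranked the replicates in the same order as hda-4, whereas the neuronal list was highest in replicate 3. Germ line genes (pgl-1, glh-1, glp-1, nos-2, mex-5 and oma-1) summed to 248, 356, 501 and 371 TPM, highest in replicate 3, as for hda-1. The early embryo regulators summed to 55.7, 73.9, 75.4 and 52.9 TPM, also highest in replicate 3. Between stages the germ line list summed to 35.5 to 56.5 TPM in larvae and 248 to 501 TPM in embryos. With TMM, 4 of 6 genes were lower and 1 higher, and nos-2 had 0 counts in at least 1 larvae library. The largest means in embryos were those of mex-5, oma-1 and nos-2 (145.8, 96.7 and 69.9 TPM). The gene called higher was glh-1, with means of 22.7 TPM in larvae and 11.95 TPM in embryos. pgl-1 was not called, with means of 16.1 TPM in larvae and 21.2 TPM in embryos. The sum therefore does not give the direction of each gene. The neuronal list summed to 199 to 256 TPM in larvae and 396 to 546 TPM in embryos, with 2 of 4 higher and 1 lower with TMM. The part of these cell types in the results was not tested.

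Beside the 5 members, the files hold the zinc-dependent deacetylase genes hda-5, hda-10 and hda-11. hda-5 (F43G6.11) was the gene of this kind that rose, with 77, 96, 83 and 92 counts in larvae against 70, 39, 15 and 27 in embryos. Its log2 fold change was 2.07 with an SE of 0.280 (adjusted p-value by edgeR 3.52e-05). In the authors' TPM it was 3.12 ± 0.385 in larvae and 1.43 ± 0.519 in embryos (SD, n = 4 each), so the rise was smaller on that scale. hda-10 (Y51H1A.5) had 6.51 ± 0.613 TPM in larvae and 14.5 ± 2.29 TPM in embryos, with a log2 fold change of -0.29 and an SE of 0.194, which did not pass with TMM (adjusted p-value by edgeR 0.189). It did pass with library totals, at -0.78 (adjusted p-value by edgeR 0.00149), in log2(TPM + 1), and without embryo replicate 1, at -0.43 (0.0407). hda-11 (C35A5.9) had 19 to 49 counts in larvae and 46 to 120 in embryos. Its log2 fold change of -0.64 missed the threshold narrowly (adjusted p-value by edgeR 0.0540), whereas it passed with DESeq2 (0.0401), with library totals (0.00457), in log2(TPM + 1), and without larvae replicate 2 (0.0437).

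Genes listed with the complexes that hold class I deacetylases also fell. Whether each listed gene acts in such a complex was not tested. In the NuRD and MEC list, 8 of 8 genes were lower in larvae (median log2 fold change -1.28). The largest falls were in lin-53 and rba-1, which encode histone-binding WD-repeat proteins, at -2.02 (SE 0.202) and -1.60 (SE 0.181). These are neighbouring paralogs, and reads that match both would have gone uncounted, so their values are uncertain. In the SIN3 list, 4 of 4 genes were lower (median -1.57), led by mrg-1, a chromodomain protein, at -2.27 (SE 0.214), and arid-1 at -1.90 (SE 0.185). In the CoREST and LSD1 list, 5 of 5 were lower (median -1.37). The largest falls were in lsd-1, a histone demethylase gene, at -3.13 (SE 0.215), and amx-1, an amine oxidase gene, at -1.81 (SE 0.161). In the same list spr-1, rcor-1 and spr-5 were at -1.07, -1.37 and -0.92. Against these counts, 37.2% of all genes were lower in larvae and the median of all genes was -0.03.

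The enzymes with the opposite activity fell as well. Of the histone acetyltransferase genes, 7 of 7 were lower in larvae (median log2 fold change -1.50), against 37.2% of all genes tested. The largest falls were in hat-1 at -1.70 (SE 0.165) and mys-1 at -1.68 (SE 0.152). Summed over these 7 genes, the level was 85.4 to 95.3 TPM in larvae and 325 to 418 TPM in embryos. Adjusted p-values by edgeR for the 24 genes of these 4 lists ranged up to 0.00583, for egl-27. All 24 stayed lower and called in each of the 16 other settings except the test against a change of at least 1.5-fold, which 20 of 24 passed. The share of all genes called lower also grew in some settings. It was 5054 of 13571 with TMM, 6607 of 13571 with library totals and 7613 of 13144 in log2(TPM + 1).

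Genes linked to HDA-4 and to tubulin acetylation moved in both directions. Of 6 genes for partners and regulators of HDA-4, 3 were higher, 1 was lower and 2 were not called with TMM, and of the 3, kin-29 and par-5 turned below 0 in log2(TPM + 1). Of all genes tested, 36.9% were higher and 37.2% lower. The calls of par-5, ftt-2 and unc-43, named here after their values were seen, depended on the settings. par-5, at 0.43 with TMM, was called lower at -0.31 in log2(TPM + 1) (adjusted p-value by limma 0.0374), and lost its call without larvae replicate 4 (adjusted p-value by edgeR 0.0507). ftt-2, at -0.04 with TMM, was called lower at -0.52 with library totals and at -0.86 in log2(TPM + 1). unc-43, at 0.41 with TMM, was called higher at 0.60 with the filter of 10 CPM, at 0.48 without larvae replicate 1 and at 0.49 without embryo replicate 1, and was at -0.43 in log2(TPM + 1), not called. mef-2, the transcription factor partner, had 28.5 ± 4.74 TPM in larvae and 13.7 ± 5.82 TPM in embryos (SD, n = 4 each), and its log2 fold change was 1.92 (SE 0.233, adjusted p-value by edgeR 1.41e-05). kin-29, the kinase that acts on HDA-4, was at 0.82 (SE 0.179) with TMM but at 0.32 with library totals, where it did not pass, and at -0.0089 in log2(TPM + 1). gei-8, the worm counterpart of the corepressor NCoR, was at -0.54 (SE 0.162). For tubulin acetylation, the acetyltransferase gene mec-17 was higher in larvae at 2.73 (SE 0.238), as was mec-12, an alpha-tubulin of touch receptor neurons, at 2.14 (SE 0.151). The second acetyltransferase gene, atat-2, was lower at -0.50 (SE 0.169, adjusted p-value by edgeR 0.0193). That call was lost without larvae replicate 4 (adjusted p-value by edgeR 0.0560) and with the filter of 10 CPM, at -0.30 (0.0953). It was also lost in the test against a change of 1.5-fold (adjusted p-value by edgeR 0.541). mef-2, mec-17 and mec-12 kept their direction under every scaling tried.

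**Figure D5:**
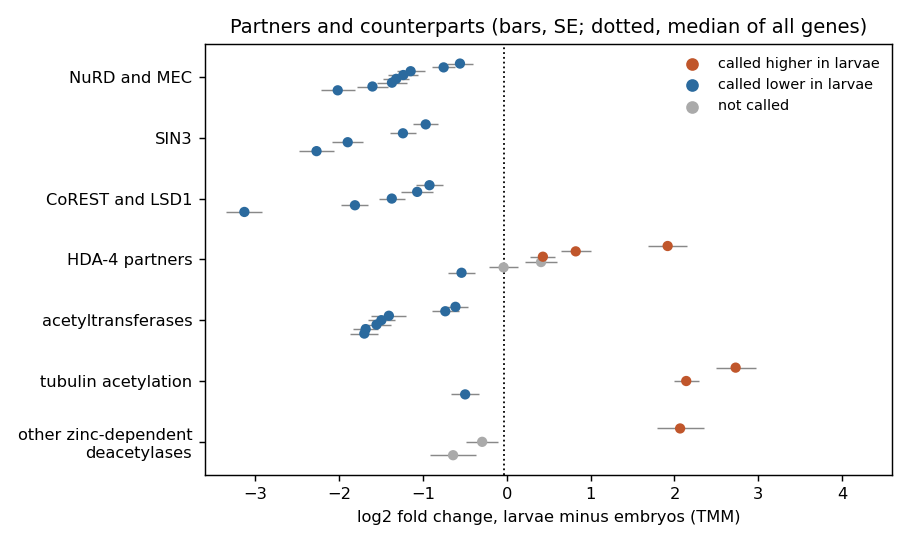
Log2 fold change, larvae minus embryos with TMM scaling, of each gene of 7 lists (points, with SE as bars), and the median of all genes (dotted line, -0.03). Genes of the lists of NuRD and MEC, SIN3, CoREST and LSD1, and acetyltransferases all lie below 0. The lists of HDA-4 partners, tubulin acetylation and other zinc-dependent deacetylases lie on both sides. In log2(TPM + 1), kin-29 and par-5 cross 0.

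Genes with the most similar profile were named by the root mean square difference of their centred log2 CPM from that of each member over the 8 libraries. For hda-1 they were src-1, a tyrosine kinase gene, with a difference of 0.0684, and amx-1 with 0.0730. For hda-2 they were nrde-4, a gene of nuclear RNA interference, with 0.0731, and fan-1, a DNA repair nuclease gene, with 0.0798. For hda-3 they were taf-5, a subunit gene of the general transcription factor TFIID, with 0.0585, and W05H9.2 with 0.0655. For hda-4 they were nipa-1 with 0.0576 and W09D10.4 with 0.0732, and for hda-6 they were ccar-1 with 0.0805 and vps-15 with 0.0822. The median over all genes lay between 0.718 and 1.07 for these members. The closest pair of members was hda-2 and hda-3 with 0.178, and the most distant was hda-1 and hda-4 with 0.886. The stage difference is part of this measure, which is given as a description only.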

How the data were processed

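Poly(A) RNA of 4 larvae and 4 embryo libraries was sequenced as stranded single-end reads. The authors aligned reads to WS220 with Tophat and deposited raw counts per gene from HTSeq, along with TPM normalized for gene length and library size. The submitters' processing notes also name Cufflinks 2.2.0, and how the TPM were made is not given in the sources used here. They are not a rescaling of the counts, since hlh-27 had 0 counts but up to 0.0244 TPM in larvae. 14 TPM columns of libraries outside the labels were not used. Deposited tables of the authors' own strain comparison hold fold changes and p-values, and were not used. The 5 HTSeq classes that name no gene were left out. Reads aligned to several places were among these. Reads in no gene were 3.26% to 6.06% and ambiguous reads 0.861% to 1.07% of gene, no-gene and ambiguous reads. Starts in the deposited loci count from 0 when compared with later gene lengths, so 1 was added.

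Members, gene lists and tests were chosen with earlier results of these data known. Genes named were the 5 members, sir-2.1, the other zinc-dependent deacetylases, in each list up to 2 called genes with the largest change in each direction, and the 2 genes most like each member. Symbols came from a RefSeq table (19879 genes matched). Counts were fitted with edgeR 4.0.16 (TMM, filterByExpr, glmQLFit and glmQLFTest, R 4.3.3), and called at a Benjamini-Hochberg adjusted p-value of 0.05. The SE was the log2 fold change divided by the root of the F statistic. Alternatives were DESeq2 1.42.0, its size factors, library totals, other filters, a replicate block, a test against a change of 1.5-fold, limma 3.58.1 on log2(TPM + 1) and log2(TPM + 0.1), and leaving out each library. Nothing says that libraries came from separate cultures beyond the study's mention of biological replicates. PCR copies were not marked, so counting error is a lower limit on the error.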

Additional observations from a re-analysis of the deposited data

Results flagged for a closer look

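Over 9 genes in the 4 libraries of each stage, 18 groups of TPM values were examined for a library far from the others, and 1 was found, where chance alone gives about 0.9. sir-2.1 had 38.6 TPM in embryo replicate 2, and the gap to the nearest embryo library was 0.890 of the whole range. That range was narrow, with 35.8, 35.9 and 36.1 TPM in embryo replicates 1, 3 and 4. The coefficient of variation over the embryo libraries was 3.66%. None of the 5 members had such a library at either stage. The same library had the highest sum of adult markers, 51.5 TPM, and the part of this in the level of sir-2.1 was not tested.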

How the results depend on the processing

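hda-1, hda-2 and hda-3 stayed lower and called in larvae in all 17 other settings, and hda-6 in all but the test against a change of 1.5-fold, where the fold change of -0.66 no longer passed. hda-4 was at 0.10 with a filter of 10 CPM in 4 libraries (not called), at -0.58 with library totals, at -0.89 in log2(TPM + 1) and at -0.92 in log2(TPM + 0.1), and was called in the last 3 of these. Leaving out each library in turn gave -1.92 to -1.72 for hda-1, -1.76 to -1.58 for hda-2, -1.45 to -1.31 for hda-3, -0.20 to -0.01 for hda-4 and -0.77 to -0.55 for hda-6. The log2 ratio of hda-1 to hda-2 turned to 0.080 without embryo replicate 3 (range -0.19 to 0.080). That of hda-4 to hda-6 was 0.57 in raw counts and 0.57 in log2 CPM, and no longer passed. In shares of counts rather than TPM, hda-1 differed by -20.6 and hda-4 by 21.5 percentage points.

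Among other genes, kin-29 was at -0.0089 and -0.0080 in log2(TPM + 1) and log2(TPM + 0.1). par-5 was at -0.058 with totals and -0.31 with either TPM pseudocount, and unc-43 was at -0.090 with totals and -0.43 with either. ftt-2, called lower at -0.52 with totals and at -0.86 with either TPM pseudocount, was at 0.16 with the filter of 10 CPM, and ranged from -0.14 to 0.064 with a library left out, with 0.01 without larvae replicate 1 and 0.064 without embryo replicate 3, none of these called. For each of these the cause was not tested. The filter of 10 CPM left 6493 genes called of 8641 tested.

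Replicate numbers are shared by both stages. Same-numbered libraries did not deviate together (r of -0.19 to 0.07 across genes, 1 of 4 larvae libraries closest to its own number). These deviations also hold variation of 1 stage alone. They therefore do not settle whether same-numbered libraries shared a culture or a batch. With a replicate block 9768 genes were called, against 10058 without it, hda-1 was at -1.80 and hda-4 at -0.07, and no call of a member changed. For ratios of members, differences within replicate numbers allow no exact p below 0.125. Depth limits hda-5 and hda-11, with 15 to 120 counts per library.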
